A study of Mus musculus with 20 samples.

Results

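These data describe how the liver of mice lacking PPARα responded to perfluorooctanoic acid (PFOA), a long-lived industrial surfactant, given in drinking water. The account rests on all 10 KO libraries among the 20 bulk liver RNA libraries of the study: 6 libraries from PFOA-exposed mice (3 female, 3 male) and 4 from mice given vehicle water (1 female, 3 male). KO is the label for PPARα knockout; the comparison genotype, called hPPARα here, expresses human PPARα and has 5 PFOA libraries (2 female, 3 male) and 5 vehicle libraries (3 female, 2 male). All mice, vehicle groups included, drank water with 0.5% sucrose and ate a diet with 33.5% fat, 51.8% carbohydrate and 14.7% protein for 6 to 7 weeks. The PFOA water is labelled as 8 µm, read here as 8 micromolar. The strain, the age of the mice and the deleted part of Ppara were not given in the sources used here, and the labels do not say that each library is a separate mouse, so the p-values reflect how far these libraries vary, which may be technical.

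PPARα is a nuclear receptor that fatty acids and fibrate drugs bind, and in liver it switches on the peroxisomal and mitochondrial enzymes that burn fatty acids. CAR (gene Nr1i3) and PXR (gene Nr1i2) are related receptors that sense drugs and other foreign compounds, and they raise cytochrome P450 enzymes, conjugating enzymes and export pumps that clear them. PFOA is known as a PPARα activator in rodents, and the comparison here asks which transcripts it changes where that receptor is missing.

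The 10 KO libraries held 14973673 to 17953860 counts over genes. Transcript levels are given as CPM (read counts scaled to a common library size) on effective library sizes. For each named gene the 4 vehicle values are written in the order female replicate 1, then male replicates 1 to 3, and the 6 PFOA values as lowest, median and highest. Log2 fold changes (PFOA over vehicle, sex as covariate) carry their standard error (SE), and a gene is said to have risen or fallen when edgeR's quasi-likelihood test gave a Benjamini-Hochberg adjusted p under 0.05 over all 13674 genes tested. In the KO set, 3 libraries held transcripts of the other sex. Ddx3y, a Y-linked gene, stood at 1.88 CPM in the vehicle female and at 0.107, 4.06 and 0 CPM in the PFOA females, against 37.1 to 50.1 CPM in males. Xist, the RNA of the silenced X chromosome, reached 30.8 CPM in PFOA male replicate 2, against 0.442 to 3.20 CPM in the other males. The single vehicle female, which also stood apart in bile duct transcripts, is the only library of its group. Results are therefore also given without it and without all 3 of these libraries. With no vehicle female left, the sex term takes up the PFOA females, and the KO effect of PFOA comes from males alone. Such values hold no female response. Without all 3, PFOA male replicate 2 is missing too, so fewer males remain. Ppara counts remained in KO libraries, at 22.4, 20.2, 20.2 and 19.9 CPM with vehicle and 8.43, 19.4 and 25.0 CPM with PFOA (log2 fold change -0.15 ± 0.23, adjusted p = 0.711), and do not check the genotype labels.

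PFOA changed the liver transcriptome of mice without PPARα broadly. Of 13674 genes, 1053 (7.70%) rose and 832 (6.08%) fell, and 360 (2.63%) rose and 218 (1.59%) fell at least 2-fold. Every PFOA library lay above every vehicle library for 819 genes (5.99%) and below for 584 (4.27%). Most genes named below were picked by their test result, so a lack of overlap in them is no separate support. Without the vehicle female 854 genes (6.17%) rose and 553 (3.99%) fell, and 702 of the 1053 risen and 392 of the 832 fallen genes kept their call. Without all 3 libraries that hold transcripts of the other sex, 609 genes (4.49%) passed, of which 422 (3.11%) rose and 187 (1.38%) fell. A fit of males alone makes the same male comparison as the fit without the vehicle female and is no separate check. There 1442 of 13330 genes (10.8%) passed, of which 896 (6.72%) rose and 546 (4.10%) fell. Leaving out PFOA male replicate 2 alone brought the total from 1885 to 1202. Most of the 12 genes with the highest log2 fold changes were cytochrome P450 genes, and the plot of gene lists gives the share of each list that passed. Counts of list members given below stand beside these shares over all genes, which were themselves lower when libraries were left out. A lower count in such a fit is therefore not particular to a list.

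**Figure D1:**
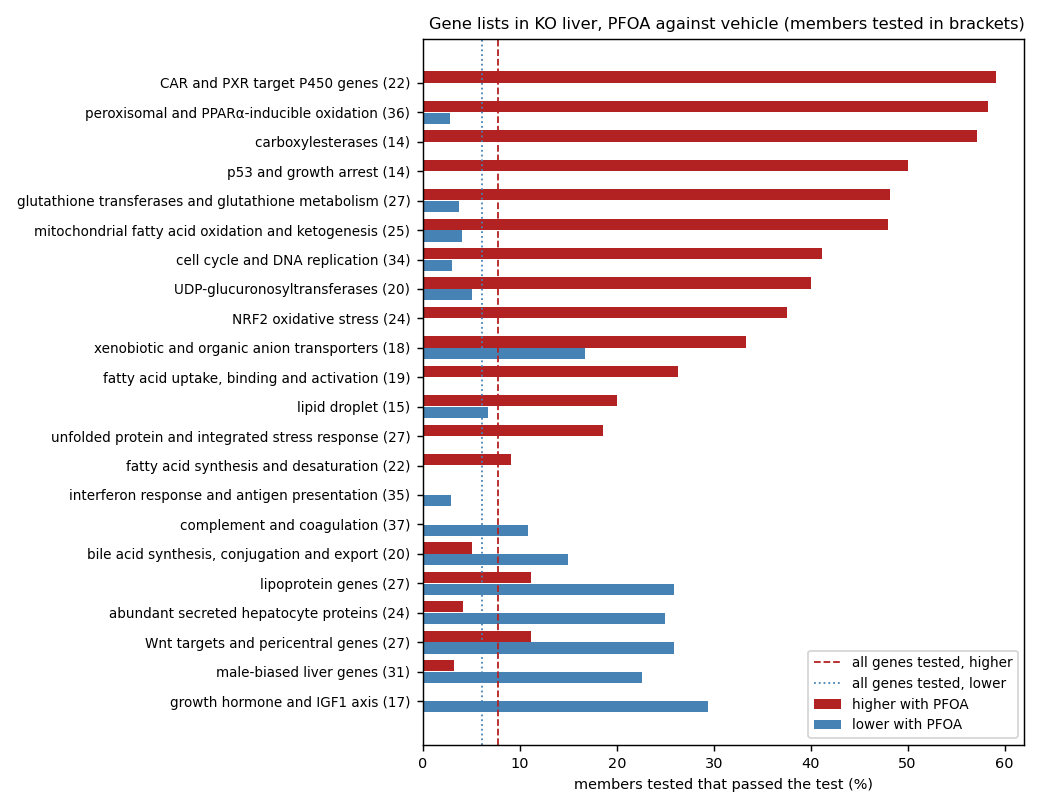
Share of each gene list's tested members (number in brackets) that passed the test, higher (upper bars) or lower (lower bars) with PFOA in KO liver, in percent; the vertical lines mark 7.70% and 6.08%, the shares over all genes tested. Among the lists plotted, the P450, peroxisomal and carboxylesterase lists have the longest upper bars, with 13 of 22, 21 of 36 and 8 of 14 members risen.

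The P450 genes known as CAR and PXR targets included several of the largest rises. Of 25 listed genes 22 were tested, 13 rose and 0 fell, and the median log2 fold change was 2.04 beside -0.01 over all genes tested. Without the vehicle female 18 rose and 0 fell, and without all 3 doubtful libraries 15 rose and 0 fell. Near-identical members of the Cyp2b, Cyp2c, Cyp3a and Cyp4a families can share reads, so single values within a family are uncertain. Promoters of 4 of these genes, and of Cyp26a1 and Rarb, described further on, are shown because nuclear receptors, those named above among them, bind short hexamer half-sites. Each is the 250 bases before the RefSeq start site (build GRCm38.p6), 5′ to 3′ on the gene's strand, with the half-sites AGNTCA or GGTTCA, on either strand, in capitals.
Cyp2b10: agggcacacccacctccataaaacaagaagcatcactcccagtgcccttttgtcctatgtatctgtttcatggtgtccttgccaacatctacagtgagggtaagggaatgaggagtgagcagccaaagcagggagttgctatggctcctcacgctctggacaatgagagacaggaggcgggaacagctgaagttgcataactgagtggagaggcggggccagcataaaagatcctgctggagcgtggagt
Cyp2b9: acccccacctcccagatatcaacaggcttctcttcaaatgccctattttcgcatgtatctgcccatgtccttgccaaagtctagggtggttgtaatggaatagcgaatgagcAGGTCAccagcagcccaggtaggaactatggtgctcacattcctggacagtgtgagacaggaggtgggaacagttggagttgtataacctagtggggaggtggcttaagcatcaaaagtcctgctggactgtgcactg
Cyp3a11: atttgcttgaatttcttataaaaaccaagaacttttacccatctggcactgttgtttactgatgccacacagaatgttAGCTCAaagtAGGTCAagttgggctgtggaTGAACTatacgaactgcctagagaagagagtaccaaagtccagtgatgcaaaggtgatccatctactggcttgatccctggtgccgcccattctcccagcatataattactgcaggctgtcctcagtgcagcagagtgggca
Cyp2c50: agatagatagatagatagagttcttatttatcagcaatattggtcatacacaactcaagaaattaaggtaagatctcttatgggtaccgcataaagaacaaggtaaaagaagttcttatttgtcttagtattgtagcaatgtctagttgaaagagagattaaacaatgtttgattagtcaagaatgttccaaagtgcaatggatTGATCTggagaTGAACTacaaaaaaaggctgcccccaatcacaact
Cyp26a1: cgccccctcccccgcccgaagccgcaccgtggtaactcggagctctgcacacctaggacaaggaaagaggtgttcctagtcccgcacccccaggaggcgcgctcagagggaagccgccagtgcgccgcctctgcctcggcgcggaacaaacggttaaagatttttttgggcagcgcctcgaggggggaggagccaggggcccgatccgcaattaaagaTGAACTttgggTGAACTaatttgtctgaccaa
Rarb: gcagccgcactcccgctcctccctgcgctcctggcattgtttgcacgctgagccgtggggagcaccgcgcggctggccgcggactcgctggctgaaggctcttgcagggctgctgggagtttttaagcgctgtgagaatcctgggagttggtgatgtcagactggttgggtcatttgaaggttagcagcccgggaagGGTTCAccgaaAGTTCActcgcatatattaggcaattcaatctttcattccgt
They lie at chr7:25897408-25897657, chr7:26173159-26173408, chr5:145879855-145880104 (minus strand), chr19:40089429-40089678, chr19:37697558-37697807 and chr14:16575477-16575726 (minus strand), all upstream of the first exon. A half-site occurs in 46.2% of all 32851 RefSeq promoters of this length, and in 8 of the 12 risen P450 genes of the list that have an entry (1 of the 13 has none). Pairs of half-sites in the same direction were searched at spacings of 1 to 5 bases. The Cyp3a11 window holds 2 half-sites in the same direction 4 bases apart, an arrangement found in 0.122% of promoters. In Cyp2c50, Cyp26a1 and Rarb they are 5 bases apart, as in 0.231% of promoters. Among the 12 risen P450 genes, spacings 4 and 5 each occur in 1, spacing 1 in 2 (Cyp3a25 and Cyp3a59) and spacings 2 and 3 in 0. The genes shown were picked, so these shares test nothing. These are matches of letters and not measured binding sites, and none of the half-sites searched is in the Cyp2b10 window. Sequence further upstream was not searched for any gene.

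Cyp2b10, the P450 most used as a readout of CAR in mouse liver, stood at 2.19, 2.60, 1.90 and 3.66 CPM with vehicle and at 1525, 1893 and 2071 CPM with PFOA. The groups were separated by a wide gap in every library of both sexes, and its log2 fold change was 9.46 ± 0.24 (SE; 703-fold, adjusted p = 1.30e-10). Cyp2c55, another drug-inducible P450, went from 0.574, 0.466, 0.880 and 1.26 CPM to 364, 505 and 565 CPM, a log2 fold change of 9.30 ± 0.27 (adjusted p = 6.07e-10). Cyp3a11, the main mouse drug-oxidizing P450 and a readout of PXR, was already abundant, at 1840.1, 955, 946 and 1203 CPM, and reached 13922, 16292 and 20650.3 CPM (log2 fold change 3.73 ± 0.22, adjusted p = 1.55e-06). The vehicle female was the highest of the 4 controls and still far below each PFOA library.

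Several genes of the Cyp2c family rose. Cyp2c29 stood at 820.3, 973, 1448 and 1635 CPM with vehicle and 10269, 11849 and 14585 CPM with PFOA, a log2 fold change of 3.30 ± 0.22 (adjusted p = 4.62e-06). For Cyp2c50 the vehicle libraries held 795, 765, 875 and 736 CPM and the PFOA libraries 3114, 3421 and 3894 CPM (2.14 ± 0.11, adjusted p = 1.95e-07). Neither gene overlapped between exposures, and Cyp2c54 (2.52 ± 0.14) and Cyp2c37 (2.42 ± 0.25) rose by a like amount on the log2 scale. Cyp2c66 had 1 count in the 4 vehicle libraries together and 5043 in the PFOA libraries, a ratio of 3066 with an exact 95% interval of 550.0 to 121119 that covers counting error only. Cyp2c65 went from 1.20, 0, 0.135 and 0.0631 CPM to 25.1, 56.2 and 112 CPM, with a log2 fold change of 7.27 ± 0.84 (adjusted p = 0.00148) and 10.08 without the vehicle female. Smaller rises were seen for Cyp3a13 (1.29 ± 0.11) and Cyp3a25 (1.09 ± 0.16). Cyp2b23 had 2 counts with vehicle and 451 with PFOA, a ratio of 137 (exact 95% interval 37.7 to 1135), and Cyp1a2, which metabolizes caffeine and is a target of the aryl hydrocarbon receptor, rose by 1.09 ± 0.13.

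Cyp2b9 and Cyp2b13 are female-predominant P450 genes. Cyp2b9 stood at 198, 0.1999, 0.203 and 0.126 CPM with vehicle, at 153, 266 and 251 CPM in the PFOA females and at 27.4, 26.0 and 11.4 CPM in the PFOA males. The vehicle female lay among the PFOA females, while the vehicle males were close to 0 and every PFOA male was well above them. Its log2 fold change across sexes was 2.38 ± 1.04 (adjusted p = 0.1804). Without the vehicle female it was 6.89 (adjusted p = 5.48e-04), a value that comes from males alone. Cyp2b13 showed the same arrangement, with 141, 0.0666, 0 and 0.0631 CPM in the vehicle libraries, 61.7, 157 and 186 CPM in PFOA females and 7.67, 12.96 and 2.56 CPM in PFOA males (adjusted p = 0.324, and 0.0255 without the vehicle female). Without all 3 doubtful libraries, among them PFOA male replicate 2 with its Xist, Cyp2b13 did not pass (adjusted p = 0.0911). The male minus female difference in response was 6.72 ± 0.78 for Cyp2b9 (log2; adjusted p = 0.0256), a call lost without vehicle male 1, 2 or 3, and 7.31 ± 1.75 for Cyp2b13, which did not pass (adjusted p = 0.234). Both rest on 1 vehicle female. The 2 promoters are identical at 248 of 250 bases, and the genes are close relatives whose reads can be split between them. Cyp2a5, which oxidizes coumarin and nicotine, did not pass at 1.151 ± 0.34 (adjusted p = 0.0528) but did without that library (1.72, adjusted p = 0.00498).

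The receptors themselves moved little. Nr1i3 stood at 211, 179, 146 and 193 CPM with vehicle and 112, 129.6 and 174 CPM with PFOA (-0.48 ± 0.12, adjusted p = 0.0220). Nr1i2 stood at 63.8, 63.4, 47.7 and 55.8 and 69.0, 73.1 and 88.9 CPM (0.39 ± 0.11, adjusted p = 0.0367). Both calls were lost when single libraries were left out: Nr1i3 without the vehicle female, vehicle males 1 or 3 or PFOA male 1, and Nr1i2 without the vehicle female, vehicle males 2 or 3, PFOA female 2 or any PFOA male. The highest adjusted p was 0.0989 for Nr1i3 and 0.0879 for Nr1i2. Among 26 tested nuclear receptors and partners, 8 rose and 4 fell (4 and 1 without the vehicle female). Ahr, the receptor for dioxins, rose from 25.6, 16.2, 18.2 and 27.8 CPM to 41.7, 55.6 and 60.9 CPM (1.27 ± 0.16, adjusted p = 4.27e-04). Pparg, a lipid-storing relative of PPARα, rose from 11.9, 8.20, 7.92 and 6.88 to 14.1, 16.3 and 18.1 CPM (0.83 ± 0.11, adjusted p = 6.27e-04), and Nr0b2, a corepressor of bile acid synthesis genes, rose by 1.49 ± 0.22 (adjusted p = 0.00211, and 0.0585 without all 3 doubtful libraries). In each of these 3 the exposures did not overlap.

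**Figure D2:**
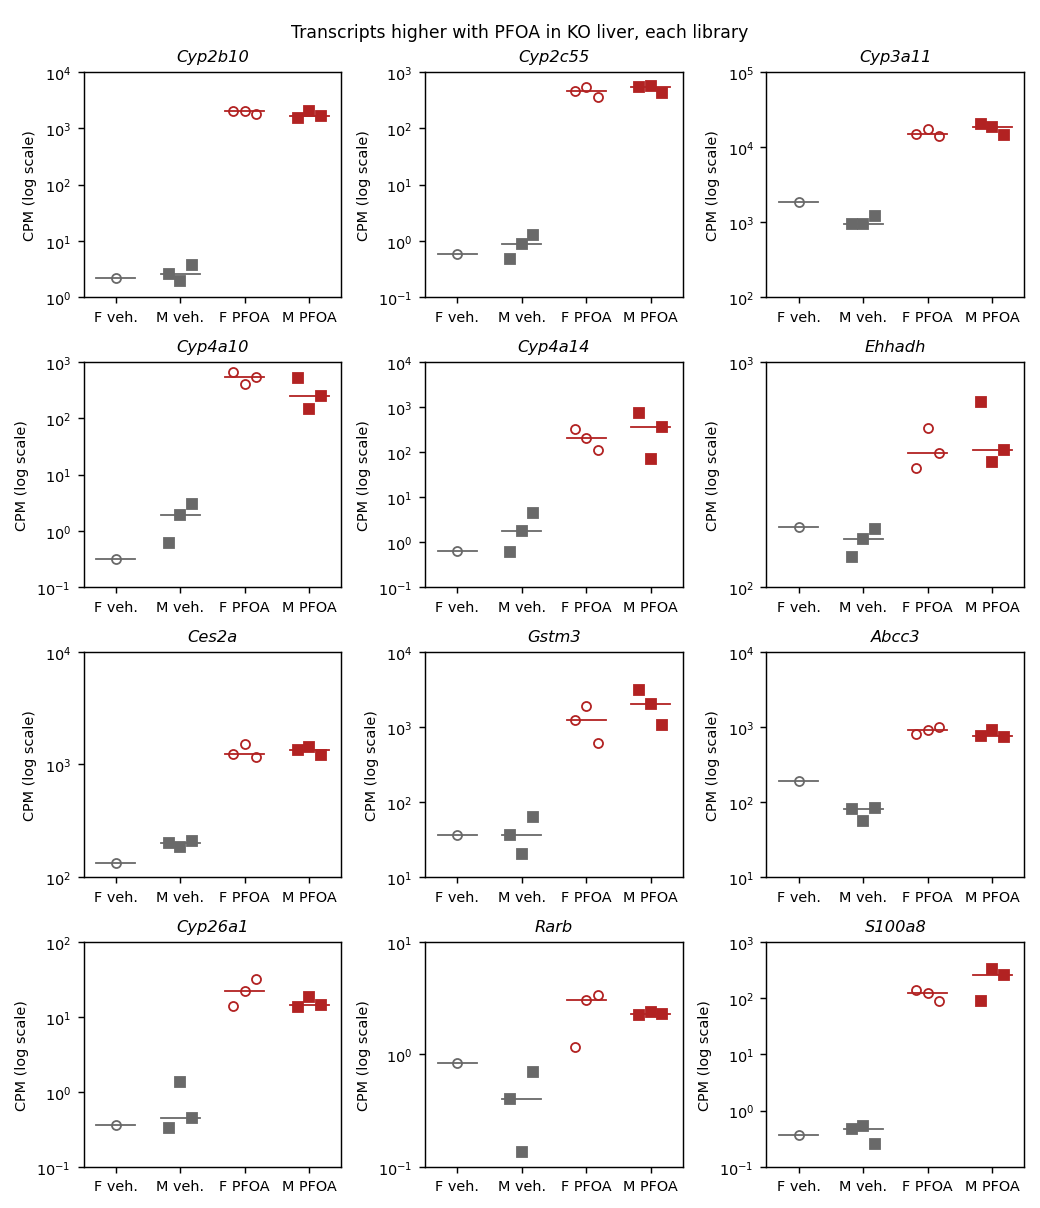
CPM (log axis) of 12 transcripts in each KO library, by sex (F, M) and exposure (veh., vehicle); circles are female, squares male, and short lines mark group medians (the vehicle female group is 1 library). In all 12 panels every PFOA library lies above every vehicle library, with Cyp2b10 between 1.90 and 3.66 CPM in the vehicle libraries. The 12 genes were picked among those that rose, and 5.99% of all genes tested show such a separation.

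Several enzymes that act with or after the P450s rose too. Por, which feeds electrons to P450s, went from 939, 477, 501 and 487 CPM to 1029, 1093 and 1296 CPM (0.84 ± 0.15, adjusted p = 0.00250), and 6 of 15 redox partner and heme synthesis genes rose and 0 fell (4 rose and 1 fell without the vehicle female). Of 14 tested carboxylesterases, which cut ester drugs and lipids, 8 rose and 0 fell (median log2 fold change 0.93). Without the vehicle female the counts were 8 and 2. Ces2a led them, from 134, 202, 185 and 211 CPM to 1163, 1303 and 1515 CPM (2.91 ± 0.14, adjusted p = 1.76e-07), with no overlap. Ces1g, a triglyceride hydrolase, rose from 111, 150.3, 64.6 and 144 to 313, 484 and 568 CPM (1.96 ± 0.27, adjusted p = 0.00129), and Ces2c (2.21 ± 0.34), Ces1e (1.49 ± 0.20) and Ces1d (1.44 ± 0.23) rose by amounts in the same range.

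Of 27 tested glutathione transferase and glutathione metabolism genes, 13 rose and 1 fell (11 and 2 without the vehicle female, 6 and 1 without all 3 doubtful libraries). Gstm3 rose most among the abundant ones, from 36.2, 36.6, 20.04 and 63.4 CPM to 616, 1562 and 3119.8 CPM (5.49 ± 0.58, adjusted p = 8.22e-04). The lowest PFOA value was still far above the highest vehicle value. Gstt3 went from 52.6, 19.9, 15.2 and 18.7 to 147, 239.6 and 311 CPM (3.06 ± 0.22, adjusted p = 1.47e-05), again without overlap. Gstm1, from 1049.5, 1001, 862 and 1010.3 to 2930.2, 4338 and 4941 CPM, rose by 2.04 ± 0.18, as did Gstm2 (2.07 ± 0.28) and Gstm4 (2.20 ± 0.21). Gclc, which starts glutathione synthesis, rose by 0.97 ± 0.17 (adjusted p = 0.00279, and 0.0706 without all 3 doubtful libraries). The Gstm genes are close relatives and their reads can be split between them.

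Among 20 tested UDP-glucuronosyltransferases 8 rose and 1 fell (7 and 1 without the vehicle female). Ugt2b34 rose from 334, 348, 449 and 435 CPM to 820.4, 1016 and 1145 CPM (1.43 ± 0.12, adjusted p = 1.57e-05). Ugt1a1, the bilirubin-conjugating enzyme whose locus shares exons with other Ugt1a forms, rose by 1.52 ± 0.25 (adjusted p = 0.00359), and Ugdh, which makes the glucuronic acid donor, by 1.52 ± 0.24 (adjusted p = 0.00256, and 0.0543 without all 3 doubtful libraries). Of 12 tested sulfotransferases 5 rose and 1 fell. Sult2a7 went from 1.30, 1.13, 0.339 and 0.757 to 5.65, 10.5 and 27.4 CPM (3.47 ± 0.34, adjusted p = 1.23e-04), while Sult2a1, at 28.8, 0, 0.0677 and 0 CPM with vehicle and at most 0.28 CPM with PFOA, did not pass the filter on low counts. Its only level above 1 CPM was in the vehicle female. Ephx1, the microsomal epoxide hydrolase, rose from 241, 357, 301 and 441 to 749, 1163 and 1308 CPM (1.83 ± 0.16, adjusted p = 2.96e-05). Akr1b7, an aldose reductase relative, rose from 2.14, 0.1999, 0.0677 and 0.189 to 4.95, 9.21 and 14.6 CPM (3.66 ± 0.41, adjusted p = 3.23e-04).

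Transport genes changed in both directions: 6 of 18 rose and 3 fell (7 and 4 without the vehicle female). Abcc3, which pumps conjugates into blood, went from 192, 79.7, 55.7 and 84.2 CPM to 730.3, 853 and 996 CPM (3.001 ± 0.24, adjusted p = 3.98e-05). Abcc2, the canalicular conjugate pump, rose by 0.77 ± 0.11 (adjusted p = 7.16e-04), and Abcc4 by 1.83 ± 0.30 (adjusted p = 0.00219). The uptake carrier Slco1a4 rose from 229, 60.9, 83.5 and 49.4 to 203, 325 and 392 CPM (1.46 ± 0.26, adjusted p = 0.00602). Here the exposures overlapped, since the vehicle female lay within the PFOA range. The organic anion carrier Slc22a7 fell from 55.8, 98.2, 81.5 and 84.1 to 14.0, 26.7 and 35.8 CPM (-1.52 ± 0.18, adjusted p = 4.84e-04). The drug pump gene Abcb1b fell from 8.29, 5.40, 8.74 and 7.07 to 2.69, 4.44 and 7.57 CPM (-0.99 ± 0.21, adjusted p = 0.00880). Its exposures overlapped: PFOA females (6.03, 6.42 and 7.57 CPM) lay inside the vehicle range, and PFOA males (2.86, 2.69 and 2.80 CPM) below it.

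Genes best known as PPARα targets also rose in these knockout livers. Of 36 tested genes of the peroxisomal and PPARα-inducible oxidation list, 21 rose and 1 fell, and their median log2 fold change was 0.54 (19 and 1 without the vehicle female, 14 and 1 without all 3 doubtful libraries). Cyp4a10, a fatty acid omega-hydroxylase, stood at 0.313, 0.5997, 1.90 and 2.97 CPM with vehicle and at 149, 468 and 679 CPM with PFOA. Its 2 groups were separated by a wide gap, at a log2 fold change of 8.05 ± 0.81 (adjusted p = 7.14e-04). Cyp4a14 went from 0.626, 0.5997, 1.76 and 4.48 to 70.3, 261 and 721 CPM (7.59 ± 1.001, adjusted p = 0.00290). The PFOA libraries themselves spread widely for Cyp4a14, with PFOA male replicate 2 the lowest. Further members of the cluster, Cyp4a32 (6.83 ± 0.60) and Cyp4a31 (2 counts with vehicle, 195 with PFOA), were scarce.

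The beta-oxidation enzymes rose by far less than the Cyp4a genes. Ehhadh, the bifunctional peroxisomal enzyme, went from 185, 135, 164 and 181 CPM to 337, 401 and 666 CPM (1.43 ± 0.20, adjusted p = 9.78e-04). Acaa1b, a peroxisomal thiolase, rose from 103, 74.7, 69.3 and 71.1 to 309, 379 and 584 CPM (2.36 ± 0.21, adjusted p = 5.90e-05). For both genes no PFOA library reached down to a vehicle library. Vnn1, a pantetheinase, rose by 3.54 ± 0.64 (adjusted p = 0.00906), Crot and Crat, which move acyl groups on carnitine, by 1.18 ± 0.17 and 0.94 ± 0.13, and Eci2 by 1.146 ± 0.13. Nudt7, a peroxisomal coenzyme A hydrolase that is higher in males, fell by 0.99 (adjusted p = 0.0135).

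Among mitochondrial genes of fatty acid breakdown and ketone production 12 of 25 rose and 1 fell, at a median log2 fold change of 0.30 (10 and 1 without the vehicle female, 6 and 0 without all 3). Eci1, an enoyl-CoA isomerase, rose from 32.3, 56.2, 46.0 and 38.4 CPM to 99.5, 111 and 126 CPM (1.46 ± 0.12, adjusted p = 1.10e-05). Slc25a20, the carnitine carrier, went from 27.2, 24.3, 25.1 and 18.7 to 52.1, 57.8 and 62.7 CPM (1.27 ± 0.11, adjusted p = 1.79e-05). Decr1 (0.83 ± 0.09), Acadl (0.85 ± 0.12) and Cpt2 (0.49 ± 0.09) rose by smaller amounts. Some standard PPARα readouts did not pass. Pdk4, a fasting-induced kinase, stood at 14.9, 3.86, 4.13 and 13.6 CPM with vehicle and 4.06, 6.72 and 10.6 CPM with PFOA, with overlapping groups (-0.45 ± 0.42, adjusted p = 0.524). Cpt1a, the entry enzyme of mitochondrial oxidation, stood at 776, 409, 399.7 and 289.5 and 347, 399.5 and 681 CPM (-0.09 ± 0.28, adjusted p = 0.862).

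Of 19 tested fatty acid uptake, binding and activation genes 5 rose and 0 fell (3 and 1 without the vehicle female, 1 and 1 without all 3 doubtful libraries). Cd36, a fatty acid transporter, went from 23.0, 15.2, 7.99 and 15.3 CPM to 22.5, 37.4 and 58.3 CPM (1.10 ± 0.23, adjusted p = 0.0107, and 0.0562 without all 3 doubtful libraries), with the vehicle female inside the PFOA range by a small margin. Lpl, which releases fatty acids from lipoproteins, rose from 10.2, 8.20, 8.06 and 13.2 to 16.0, 34.3 and 53.9 CPM (1.85 ± 0.26, adjusted p = 0.00188). Of 15 tested lipid droplet genes 3 rose and 1 fell, at a median log2 fold change of 0.06. Without the vehicle female 5 of 16 rose and 0 fell at a median of 0.42, and without all 3 doubtful libraries 4 of 15 rose and 0 fell at a median of 0.41. Fitm2, needed for droplet budding, rose from 19.1, 20.3, 18.1 and 19.1 to 26.8, 34.9 and 44.1 CPM (0.88 ± 0.11, adjusted p = 3.83e-04). Plin2, the common droplet coat protein, stood at 319, 220.0, 149 and 114 and 154, 213 and 268 CPM with overlapping groups (0.06 ± 0.27, adjusted p = 0.902). Cidec, a droplet fusion protein, did not pass (0.95 ± 0.37, adjusted p = 0.122) but did without the vehicle female (1.67, adjusted p = 0.00607). In the fatty acid synthesis list 2 of 22 rose (9.09%, beside 7.70% over all genes tested) and 0 fell. Fasn, the synthase, was at -0.18 ± 0.40 (adjusted p = 0.816) and its regulator Srebf1 at -1.16 ± 0.33 (adjusted p = 0.0526).

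Among 27 lipoprotein genes 3 rose and 7 fell (3 and 5 without the vehicle female, 1 and 1 without all 3). Scarb1, the HDL receptor, fell from 374, 334, 251 and 294 CPM to 170.3, 184 and 229 CPM (-0.75 ± 0.12, adjusted p = 0.00204, and 0.114 without all 3 doubtful libraries), and Angptl4, an inhibitor of lipoprotein lipase, rose from 45.6, 21.6, 17.8 and 18.6 to 51.4, 88.6 and 104 CPM (1.69 ± 0.31, adjusted p = 0.00898). Neither overlapped between exposures. Of 20 tested bile acid genes 1 rose and 3 fell. Fgfr4, the receptor through which the gut hormone FGF15 restrains bile acid synthesis, fell from 68.5, 67.0, 78.1 and 57.4 to 28.6, 35.3 and 52.2 CPM (-0.93 ± 0.13, adjusted p = 7.75e-04). Cyp7a1, which sets the rate of bile acid production, ranged from 35.7 to 293 CPM among vehicle libraries and did not pass (-1.31 ± 0.63, adjusted p = 0.217), nor did Cyp8b1 (-0.60 ± 0.36, adjusted p = 0.315).

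No list of retinoic acid genes was tested, and 3 genes are given singly. Cyp26a1, outside the lists and chosen after its values were seen, breaks down retinoic acid, the hormone made from vitamin A. It went from 0.365, 0.333, 1.35 and 0.442 CPM to 13.6, 16.4 and 32.1 CPM. No vehicle library came near the PFOA range, and the log2 fold change was 4.84 ± 0.44 (adjusted p = 1.67e-04; without the vehicle female 4.45, adjusted p = 0.00102). Rarb, a retinoic acid receptor from the nuclear receptor list, was low throughout, at 0.834, 0.400, 0.135 and 0.694 CPM with vehicle and 1.17, 2.33 and 3.362 CPM with PFOA (2.11 ± 0.41, adjusted p = 0.00462). Both promoters shown above carry the repeat with 5 bases between half-sites, a match of letters only. Aldh1a1, a retinaldehyde dehydrogenase, rose from 428, 991, 727 and 1057 to 1866, 2431 and 2654 CPM (1.68 ± 0.23, adjusted p = 7.75e-04).

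Some stress and growth arrest genes rose. In the list of NRF2, the regulator of oxidative stress genes, 9 of 24 rose and 0 fell (7 and 1 without the vehicle female). Nqo1, a quinone reductase, rose by 1.06 ± 0.15 (adjusted p = 8.22e-04) and Srxn1, which repairs peroxiredoxins, by 1.30 ± 0.19 (adjusted p = 0.00154). In the unfolded protein and integrated stress response list 5 of 27 rose and 0 fell (8 and 3 without the vehicle female). Ddit3, a stress-induced transcription factor, went from 5.11, 7.80, 5.42 and 4.23 CPM to 10.2, 18.5 and 28.1 CPM (1.89 ± 0.25, adjusted p = 7.83e-04). Trib3, one of its targets, went from 15.8, 16.6, 11.9 and 4.99 to 63.0, 107 and 193 CPM (3.18 ± 0.49, adjusted p = 0.00472, and 0.0707 without all 3 doubtful libraries), and Gdf15, a circulating stress hormone, from 3.08, 2.67, 2.23 and 0.631 to 14.0, 24.0 and 49.0 CPM (3.52 ± 0.54, adjusted p = 0.00447, and 0.0882 without all 3 doubtful libraries). For all 3 the exposures were fully apart, yet the chaperone Hspa5 of the same list stood at 401, 503, 783 and 538 and 304, 385 and 803 CPM (-0.18 ± 0.25, adjusted p = 0.671).

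Of 14 p53 and growth arrest genes 7 rose and 0 fell, at a median log2 fold change of 0.65 (9 and 0 without the vehicle female, 4 and 0 without all 3). Gadd45a, a growth arrest gene, went from 4.59, 5.73, 5.82 and 3.66 CPM to 15.6, 26.2 and 40.0 CPM (2.54 ± 0.26, adjusted p = 2.45e-04). Gadd45b, also known to respond to CAR activators, went from 3.49, 0.733, 0.745 and 0.379 to 6.16, 12.4 and 34.9 CPM (3.33 ± 0.59, adjusted p = 0.00805). Cdkn1a, the p21 cell cycle inhibitor, went from 1.36, 1.999, 1.02 and 1.70 to 1.40, 8.95 and 14.8 CPM (2.52 ± 0.52, adjusted p = 0.0124, and 0.0540 without all 3 doubtful libraries), and there the lowest PFOA library lay inside the vehicle range. Hrk, a pro-death BCL2 family gene outside the lists and chosen after its values were seen, went from 0.730, 1.20, 0.542 and 0.694 to 8.51, 11.1 and 15.3 CPM (3.97 ± 0.21, adjusted p = 2.38e-07).

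Cell cycle transcripts rose as well: 14 of 34 rose and 1 fell, at a median log2 fold change of 0.87 (11 and 1 without the vehicle female, 6 and 1 without all 3). Mki67, a marker of dividing cells, went from 1.147, 0.933, 1.151 and 2.46 CPM to 3.70, 5.41 and 7.69 CPM (1.99 ± 0.29, adjusted p = 9.56e-04). Top2a went from 1.25, 0.5997, 1.02 and 1.33 to 2.74, 3.47 and 5.30 CPM (1.83 ± 0.27, adjusted p = 9.78e-04) and Cdc20 from 0.678, 0.1999, 0.203 and 0.631 to 1.51, 2.78 and 3.67 CPM (2.51 ± 0.41, adjusted p = 0.00189). All were low, and none overlapped between exposures. Ccne1, a G1 cyclin, was the member that fell, from 4.38, 7.33, 7.31 and 7.83 to 1.23, 2.94 and 3.62 CPM (-1.22 ± 0.25, adjusted p = 0.00600). The replication genes Mcm2 and Pcna did not pass: Mcm2 stood at 0.41 ± 0.32 (adjusted p = 0.440) and Pcna at -0.13 ± 0.18 (adjusted p = 0.686). In bulk liver a change in the number of cells of a type and a change in RNA per cell cannot be told apart.

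Some secreted liver proteins and growth hormone axis genes fell. Of 24 abundant secreted hepatocyte proteins 1 rose and 6 fell, at a median log2 fold change of -0.35 (0 and 8 without the vehicle female, 0 and 3 without all 3). Trf, the iron carrier transferrin, fell from 18224, 17496, 16342 and 19693 CPM to 9438, 10313 and 15025 CPM (-0.76 ± 0.12, adjusted p = 0.00188), and Ahsg, fetuin A, from 15109.6, 13789, 14306 and 12894 to 6491, 9201 and 9727 CPM (-0.73 ± 0.12, adjusted p = 0.00211). The hepatocyte marker list summed to 134371 to 154670 CPM with vehicle and 100387 to 130458 CPM with PFOA. In the growth hormone and IGF1 list 0 of 17 rose and 5 fell. Igf1 fell from 601, 1031, 1056 and 857 to 432, 504 and 583 CPM (-0.78 ± 0.16, adjusted p = 0.00653) and its carrier Igfals from 187, 222, 238 and 172 to 90.3, 104 and 149 CPM (-0.95 ± 0.15, adjusted p = 0.00123). Neither overlapped between exposures. In the interferon and antigen presentation list 0 of 35 rose and 1 fell (2.86%), beside 7.70% risen and 6.08% fallen over all genes tested.

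Targets of Wnt signalling, which marks hepatocytes around the central vein, fell more often than they rose. Of 27 tested, 3 rose (11.1%) and 7 fell (25.9%), beside 7.70% and 6.08% over all genes tested. The counts were the same without the vehicle female, and 2 and 7 without all 3. Cyp1a2 and Aldh1a1, given above with their rises, are among the 3 that rose. Nkd1, a feedback inhibitor of the pathway, fell from 15.5, 12.5, 11.6 and 15.8 CPM to 5.43, 6.54 and 7.29 CPM (-1.12 ± 0.13, adjusted p = 1.64e-04). Tcf7 fell from 13.2, 9.46, 8.94 and 10.6 to 3.42, 5.53 and 6.47 CPM (-1.12 ± 0.14, adjusted p = 2.64e-04) and Notum, which inactivates Wnt proteins, from 75.9, 50.7, 49.0 and 48.9 to 25.3, 36.9 and 41.6 CPM (-0.78 ± 0.10, adjusted p = 2.80e-04). In all 3 the PFOA libraries lay below the vehicle libraries. Glul, glutamine synthetase of the innermost pericentral cells, fell from 1477, 1429, 1200.2 and 1773 to 705, 955 and 1083 CPM (-0.70 ± 0.13, adjusted p = 0.00402). Gulo, of vitamin C synthesis, fell by 1.11 on the log2 scale (adjusted p = 2.89e-04). Cyp2e1, a pericentral P450, did not pass (-0.13 ± 0.13, adjusted p = 0.554). Among periportal genes 1 of 21 rose and 4 fell (1 and 2 without the vehicle female, 1 and 0 without all 3). Ass1 of the urea cycle fell by 0.71 (adjusted p = 0.00183, and 0.0814 without all 3).

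Several signalling and secreted proteins fell with and without the vehicle female. Ntrk2, a neurotrophin receptor, went from 89.0, 15.9, 12.3 and 32.9 CPM to 0.165, 0.370 and 2.19 CPM, with a log2 fold change of -6.28 ± 0.54 (adjusted p = 2.75e-04) and -6.00 (adjusted p = 0.00522) without that library. Ihh, the Indian hedgehog ligand, went from 4.85, 4.80, 7.18 and 7.20 to 0.224, 0.454 and 0.616 CPM (-3.66 ± 0.27, adjusted p = 5.50e-06). Both lay far below the vehicle range in every PFOA library. Enho, which encodes the metabolic peptide adropin, fell from 27.1, 16.1, 25.9 and 27.8 to 2.85, 4.30 and 5.42 CPM (-2.54 ± 0.21, adjusted p = 3.50e-05), and Sort1, a sorting receptor for lipoproteins that is outside the lists and was chosen after its values were seen, from 9.91, 8.73, 7.99 and 13.2 to 1.81, 1.996 and 2.27 CPM (-2.29 ± 0.17, adjusted p = 5.50e-06). The 6 PFOA values of Sort1 were close together and all far under the lowest vehicle value. Irx1 (-2.42 ± 0.37) and Ptgds (-2.17 ± 0.31) fell from low levels. Enho, Irx1 and Ptgds were named from the 12 lowest log2 fold changes without the vehicle female, a rule added after the data were seen. That they kept their call without it was set by this choice. Wfdc2 fell (-3.06 ± 0.33), and was at -2.44 without the vehicle female.

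Some other falls lost their call without that library. Of the 12 genes with the lowest log2 fold changes, 8 lost their call without it, while the 12 highest kept theirs. Krt19, a keratin of bile duct cells, stood at 61.4, 0.933, 0.813 and 3.60 CPM with vehicle and 0.320, 0.433 and 0.699 CPM with PFOA (-4.94 ± 1.03, adjusted p = 0.0182). Its adjusted p was 0.0776 without the vehicle female, and the call was also lost without PFOA female replicate 2. Muc1, a duct mucin, stood at 56.0, 0.800, 1.08 and 4.103 CPM and 0.280, 0.502 and 0.757 CPM (adjusted p = 0.0165, and 0.0767 without that female). Ly6d stood at 74.7, 0.466, 0.135 and 2.02 and 0.224, 0.367 and 1.33 CPM (adjusted p = 0.00964, and 0.260). In all 3 the vehicle female alone was high. Acta2, of smooth muscle, was high in that female and in vehicle male replicate 3 (41.3, 2.999, 6.91 and 34.9 CPM), and its adjusted p of 0.0265 became 0.149 without the female. It was also lost without vehicle male 3, PFOA female 2 or any PFOA male. Of 11 tested bile duct and progenitor markers 1 rose and 8 fell with all libraries, at a median log2 fold change of -1.75. Without the vehicle female 1 of 11 rose and 0 fell, at a median of -1.19. In males alone 1 of 10 rose and 3 fell, at a median of -1.14. The 15 markers summed to 297 CPM in that library, 93.0 to 118 CPM in the vehicle males and 62.0 to 92.2 CPM in the PFOA libraries.

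**Figure D3:**
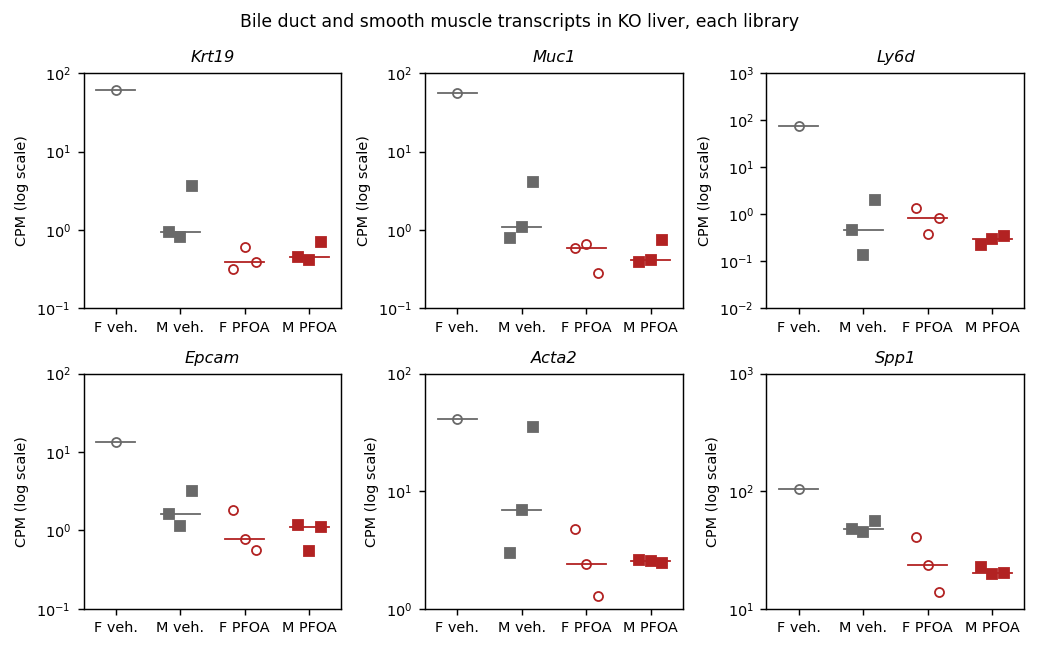
CPM (log axis) of 6 bile duct and smooth muscle transcripts in each KO library, by sex (F, M) and exposure (veh., vehicle); circles are female, squares male, short lines group medians. The single vehicle female lies at the top of every panel, for Krt19 at 61.4 CPM against at most 3.60 CPM in the vehicle males.

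S100a8, a calcium-binding protein of neutrophils and stressed epithelium, went from 0.365, 0.466, 0.542 and 0.252 CPM to 87.9, 131 and 324 CPM (8.85 ± 0.57, adjusted p = 5.01e-05). Its usual partner S100a9 stood at 0.991, 0.666, 0.609 and 0.0631 and 0.349, 0.625 and 2.03 CPM (0.30 ± 0.50, adjusted p = 0.737). So S100a8 was far apart between exposures and S100a9 overlapped. Of the 14 other neutrophil markers 13 were under 1 CPM in every KO library, and together they summed to 1.07 to 3.79 CPM with vehicle and 2.21 to 4.22 CPM with PFOA. Of 19 tested Kupffer cell and macrophage markers 3 rose and 1 fell (2 and 0 without the vehicle female). Adgre1, which encodes the macrophage antigen F4/80, went from 7.04, 5.06, 5.55 and 4.48 to 8.30, 11.96 and 14.2 CPM (0.97 ± 0.17, adjusted p = 0.00300). The summed Kupffer cell list overlapped, at 273 to 549 CPM with vehicle and 415 to 664 CPM with PFOA. Lyve1, of sinusoidal endothelium, rose by 1.83 ± 0.25 (adjusted p = 6.60e-04) while the endothelial list summed to 344 to 542 and 420 to 504 CPM. Of 17 tested endothelial markers 3 (17.6%, beside 7.70% over all genes tested) rose and 0 fell. Only 4 of the 17 had a log2 fold change above 0, and the median was -0.06. The part of cell make-up in the gene results was not tested.

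Genes known to differ between male and female liver are given by sex. Of 31 tested male-biased liver genes 1 rose and 7 fell, at a median log2 fold change of -0.83 (3 and 10 without the vehicle female). Of 29 tested female-biased liver genes 1 rose and 6 fell, at a median of -0.32 (5 and 1 without the vehicle female). The fallen shares were 22.6% and 20.7%, beside 6.08% over all genes tested. C9, a complement component of another list that is higher in these males, stood at 240.2, 796, 941 and 968 CPM with vehicle, at 97.2, 91.9 and 142 CPM in PFOA females and at 218, 249.5 and 342 CPM in PFOA males (-1.55 ± 0.18, adjusted p = 2.58e-04). PFOA males lay below the vehicle males, and PFOA females below the vehicle female. Sult2a8, a bile acid sulfotransferase, stood at 324, 858, 887 and 979.8 CPM with vehicle, 305, 278 and 427 CPM in PFOA females and 378, 373 and 433 CPM in PFOA males. The vehicle female lay among the PFOA females, and the vehicle males lay above the PFOA males. Cyp7b1, which hydroxylates oxysterols, stood at 63.3, 637, 947 and 811 CPM with vehicle, 52.8, 74.0 and 74.5 CPM in PFOA females and 178, 203 and 265 CPM in PFOA males, with the same arrangement. The difference between the male and the female response did not pass for any of these 3 (adjusted p = 0.580 for C9, 0.132 for Sult2a8 and 0.0669 for Cyp7b1). Cyp4a12a, a male-predominant hydroxylase, stood at 17.3 CPM in the vehicle female and 281, 322 and 119 CPM in PFOA females, against 400.5, 348 and 386 CPM in vehicle males and 668, 571 and 609 CPM in PFOA males (1.43 ± 0.61, adjusted p = 0.168).

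The difference between the male and the female response was tested directly, with 1 vehicle female assumed to vary like the other groups. It passed for 13 genes, 9 (0.0658%) with a higher log2 fold change in males and 4 (0.0293%) with a lower value. That count was 7, 21 and 28 without vehicle males 1, 2 and 3, and 27 and 22 without PFOA females 2 and 3. Cyp2c67 differed by -2.76 ± 0.30 (log2, male minus female; adjusted p = 0.00302), with 92.6, 514, 709 and 624 CPM with vehicle, 294, 221 and 305 CPM in PFOA females and 239, 295 and 264 CPM in PFOA males. Under PFOA the sexes were level. Cyp2c69, with 84.1, 3.40, 2.37 and 1.51 CPM with vehicle, 19.96, 25.8 and 29.1 CPM in PFOA females and 17.4, 21.9 and 14.5 CPM in PFOA males, differed by 4.65 ± 0.38 (adjusted p = 0.00137). These P450s belong to a family of near-identical genes. Several others were high in the vehicle female alone, among them Ezr (39.7, 5.40, 4.94 and 5.43 CPM with vehicle, 4.31 to 5.88 CPM with PFOA) and Cd24a (40.3, 1.73, 2.84 and 3.16 CPM and 0.956 to 2.41 CPM). With library totals as the only scaling, the median of this sex difference over all genes moved to 0.12, so single differences are relative to that shift.

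**Figure D4:**
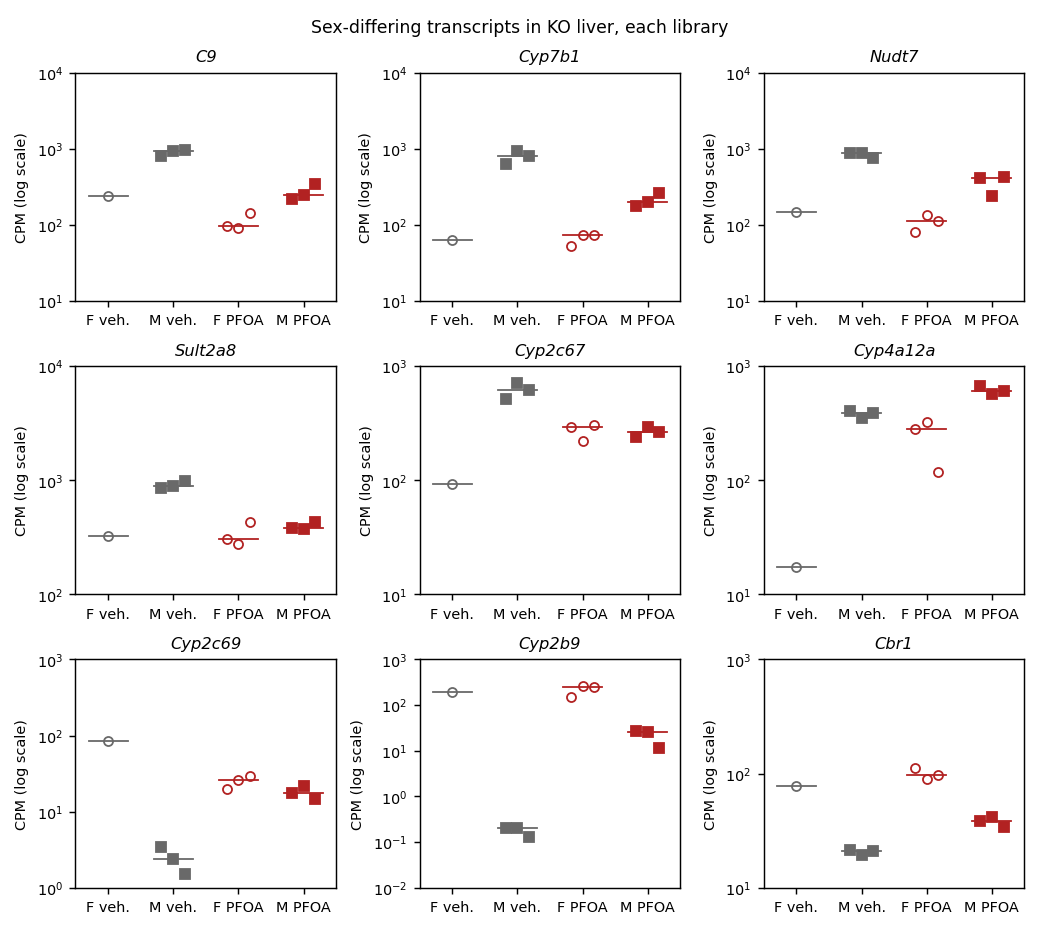
CPM (log axis) of 9 transcripts that differ between the sexes in each KO library, by sex (F, M) and exposure (veh., vehicle); circles are female, squares male, short lines group medians (the vehicle female group is 1 library). C9, Cyp7b1, Nudt7, Sult2a8 and Cyp2c67 are lower in PFOA males than in vehicle males, and Cyp2b9 and Cyp2c69 are higher.

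How the response of the KO livers differed from that with human PPARα was tested in a fit of all 20 libraries. In that fit 1257 of 14341 genes (8.77%) rose and 1034 (7.21%) fell in KO livers, and 1912 (13.3%) rose and 1590 (11.1%) fell with human PPARα. The difference itself passed for 176 genes, 68 (0.474%) higher and 108 (0.753%) lower in KO. It passed for 82 genes without the KO vehicle female, 89 without KO PFOA male 2, and 74 and 89 without hPPARα PFOA females 1 and 2. Of the peroxisomal list 0 of 36 members were higher in KO and 6 lower, and of the mitochondrial list 0 of 25 and 4. For Ehhadh the log2 fold change was 1.43 ± 0.17 in KO and 3.95 ± 0.18 with human PPARα, a difference of -2.52 ± 0.23 (adjusted p = 3.49e-06). Hsd17b11, a droplet-bound dehydrogenase, gave 0.46 ± 0.11 and 2.24 ± 0.11 (difference -1.78 ± 0.15, adjusted p = 2.55e-06). Both genes rose in each genotype, by a smaller amount in KO. Pex11a (-1.05, adjusted p = 0.0101), Hadha (-0.81, 0.00536), Hadhb (-0.95, 0.00849) and Acadm (-0.78, 0.0122) also responded less in KO. Without the 3 doubtful libraries Pex11a (0.140) lost that call. Acot8, a peroxisomal thioesterase, and Ephx2, the soluble epoxide hydrolase, rose with human PPARα (0.90 ± 0.09 and 1.23 ± 0.12) and stood at -0.02 ± 0.10 and 0.09 ± 0.13 in KO (adjusted p of the difference 0.00158 and 0.00329).

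The Cyp4a genes were not among them. Cyp4a10 changed by 8.06 ± 0.84 in KO and 7.23 ± 0.72 with human PPARα, a difference of 0.83 ± 0.97 (adjusted p = 0.758), and Cyp4a14 by 7.60 ± 0.99 and 8.35 ± 0.93 (difference -0.76 ± 1.20, adjusted p = 0.832). A p over the threshold does not show that the responses were alike. Cyp2b10 gave 9.46 ± 0.51 and 8.998 ± 0.46 (difference 0.46 ± 0.57, adjusted p = 0.772).

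Some conjugation and stress genes responded more in KO. Gstt3 rose by 3.06 ± 0.21 in KO and 1.40 ± 0.19 with human PPARα (difference 1.67 ± 0.26, adjusted p = 0.00479). Gstm2 was at 2.07 ± 0.23 and 0.13 ± 0.21 (difference 1.94 ± 0.31, adjusted p = 0.00535). Cbr1, a carbonyl reductase, was at 0.69 ± 0.14 and -0.31 ± 0.13 (difference 1.01 ± 0.19, adjusted p = 0.0122), and Hrk at 3.97 ± 0.31 and 1.79 ± 0.29 (adjusted p = 0.0142). These 4 kept the call when each of the 20 libraries was left out in turn, and all but Hrk (adjusted p = 0.105) did without the 3 doubtful libraries together. Ahr rose in KO (1.27 ± 0.16) and not past the threshold with human PPARα (0.22 ± 0.15). Its difference of 1.06 ± 0.22 (adjusted p = 0.0192) was lost without hPPARα PFOA female 1, and without the 3 doubtful libraries (0.161). Cyp26a1 gave 4.84 ± 0.61 and 0.85 ± 0.46. Its difference of 3.995 ± 0.78 (adjusted p = 0.0204) was lost without the KO vehicle female (0.0797), hPPARα vehicle male 2 or hPPARα PFOA female 2. Wif1, a Wnt inhibitor, fell less in KO (-1.69 ± 0.33) than with human PPARα (-5.32 ± 0.48; difference 3.63 ± 0.61, adjusted p = 0.0101). In the KO libraries alone its adjusted p of 0.0259 was 0.139 without the vehicle female, and the call was also lost without vehicle male 2 or PFOA females 1 or 3. Among droplet and fasting genes, Plin2 (-1.73, adjusted p = 0.0142) lost its lower response in KO without the KO vehicle female (0.0553). Cd36 (-1.51, 0.0326) and Pdk4 (-2.93, 0.0330) lost theirs without 8 and 9 of the 20 libraries in turn, that female among them (0.118 and 0.138).

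**Figure D5:**
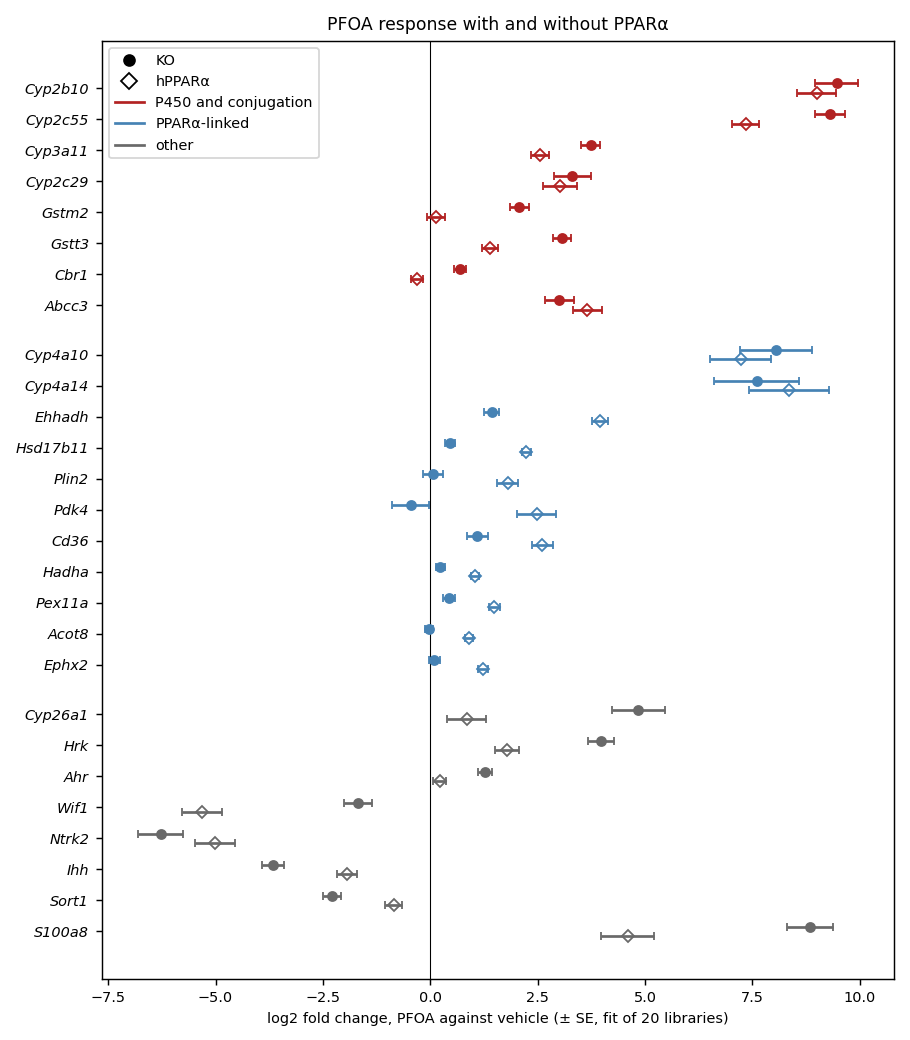
Log2 fold change of PFOA against vehicle (± SE) for 27 genes in KO livers (filled circles) and hPPARα livers (open diamonds), from the fit of all 20 libraries; colours mark gene groups. Cyp2b10 and the Cyp4a genes lie far right in both genotypes, with no genotype difference that passed, which does not show equal responses. Ehhadh and Hsd17b11 lie further right with human PPARα and Gstm2 and Gstt3 further right in KO.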

How the data were processed

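Bulk liver RNA was sequenced and the authors deposited 1 table of raw read counts per gene symbol for each genotype. The submitters' processing notes name build GRCm39, edgeR 3.36.0 with R 4.1.0, featureCounts 1.6.1, STAR 2.5.3, and for read quality and trimming tools FastQC 0.11.5 and cutadapt 1.15. The sources used here give neither strand setting nor annotation; overlapping and near-identical genes are uncertain. Both tables hold 53599 symbols, 17159 without a count, and 0 rows name no gene.

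Groups came from the sample titles. From the deposited counts, edgeR 4.0.16 (R 4.3.3, limma 3.58.1) was run with TMM factors, filterByExpr on the 2 exposures and a robust quasi-likelihood fit, in which exposure and sex were terms. The genotype difference used all 20 libraries (filter by genotype and exposure), and the sex difference the 4 groups of sex and exposure. P-values were Benjamini-Hochberg adjusted over all genes tested, at a threshold of 0.05. CPM used TMM effective library sizes. Alternatives were DESeq2 1.42.0, other scalings, no filter, a replicate block and leaving out libraries. Intervals of count ratios are exact at 95%. Scripts were tested on simulated data.

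Members and gene lists were chosen with earlier results of these data known. Genes named were, among called genes that are not predicted symbols, the 12 highest and 12 lowest log2 fold changes with a mean of at least 1 CPM, up to 6 members of each list by adjusted p, the 8 smallest adjusted p in each direction of the genotype and sex differences, and a fixed set of readouts. Other list members are given with their values, and Cyp26a1, Hrk and Sort1 were chosen after their values were seen. Enho, Irx1, Ptgds and Serpina9 came from the 12 lowest log2 fold changes without the vehicle female, a rule added after the data were seen. Same-numbered libraries of the KO groups did not deviate together (r from -0.13 to 0.03 over 9 pairs), so replicate numbers were not treated as pairs. Promoters came from RefSeq (GRCm38.p6) by symbol, with a row for all 6 printed; coordinates were not mixed with GRCm39. Some list members are not reported here.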

Additional observations from a re-analysis of the deposited data

Results flagged for a closer look

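The differences below passed the test of the genotype or sex difference itself. They are signed differences of log2 fold changes, so a lower value can be a smaller rise or a larger fall. Log2 fold changes lower in KO than with human PPARα were those of Serinc2 (-6.22), Ly6d (-6.40), Bhlhb9 (-3.29), Chrna2 (-3.26), Pdk4 (-2.93), Ehhadh (-2.52), Cidec (-2.33), Abcb1b (-2.14), Acot1 (-1.90), Hsd17b11 (-1.78), Plin2 (-1.73), Ihh (-1.72), Cd36 (-1.51), Sort1 (-1.44), Ephx2 (-1.14), Pex11a (-1.05), Hadhb (-0.95), Acot8 (-0.92), Hadha (-0.81), Acadm (-0.78) and Acsf3 (-0.70). Ihh and Sort1 are among them because they fell more in KO. When each of the 20 libraries was left out in turn, the call was lost 16 times for Cidec, 9 for Pdk4, 8 for Cd36, 7 for Ly6d, 6 for Acot1, 3 for Sort1 and 1 each for Plin2 and Ihh. The KO vehicle female was among the libraries in all of these but Ihh, which was lost without hPPARα PFOA female 2. Without the KO vehicle female the adjusted p was 0.311 for Ly6d. Abcb1b fell in KO and rose with human PPARα (-0.98 ± 0.28 and 1.16 ± 0.25), with overlapping exposures in each genotype.

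Log2 fold changes higher in KO were those of Cyp26a1 (3.995), Wif1 (3.63), Gstm3 (2.58), Hrk (2.19), Gstm2 (1.94), Gstt3 (1.67), Ddit3 (1.44), Orm2 (1.40), Hopx (1.20), Cyp3a11 (1.19), Ahr (1.06), Cbr1 (1.01), Ces2a (0.99), Fcna (0.98), St3gal1 (0.91), Tra2b (0.84), Tob2 (0.82), Cyp2c54 (0.75) and Cyp2c50 (0.59). Wif1 is among them because it fell less in KO. With each of the 20 libraries left out in turn, the call was lost 17 times for Cyp2c54, 15 for Ddit3, 13 for Cyp3a11, 11 for Gstm3, 8 for Orm2, 7 each for Ces2a and Cyp2c50, 3 for Cyp26a1 and 1 each for Hopx and Ahr. The KO vehicle female was among those libraries for all of these but Cyp3a11, Orm2 and Ahr.

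Male minus female differences in KO livers were positive for Cyp2b9 (6.72), Ppp1r3g (6.67), Cyp2c69 (4.65), Cd24a (3.82), Coro2a (3.44), B4galt6 (2.81), Ezr (2.66) and Slc25a22 (1.37). They were negative for Cyp2c67 (-2.76), Cyp2d9 (-2.05), Adh4 (-1.74) and Srd5a1 (-1.69). All of them rest on 1 vehicle female, and the calls of Adh4, Cyp2d9, Slc25a22, B4galt6 and Cyp2b9 were also lost without vehicle male replicate 1. Cyp2b9 was lost without vehicle males 2 or 3 as well, and B4galt6 without PFOA female 1 or PFOA males 1 or 2.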

How the results depend on the processing

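The 1885 calls of PFOA in KO livers became 2307 with DESeq2, 1886 with RLE factors, 1880 with library totals, 2774 without a filter, 2113 with a filter by the 4 groups, 1834 with the sexes weighted equally, 2291 in the fit of 20 libraries and 1442 in males only. Leaving out 1 library gave 1202 to 1904 calls, and leaving out the 3 libraries with transcripts of the other sex gave 609. The genotype difference (176 calls) gave 421 with DESeq2, 182 with RLE factors, 193 with library totals, 545 without a filter, 41 without those 3 libraries, 26 in males only and 74 to 239 without 1 library. The sex difference (13 calls) gave 163 with DESeq2, 22 with library totals, 381 without a filter and 7 to 28 without 1 library; the single vehicle female cannot be left out of it, so the alternative without all 3 libraries was not run for it. Why these counts moved was not tested. The replicate block gave 1351 calls in KO livers, 101 for the genotype difference and 10 for the sex difference. The numbers mark no known pairing: of 18 matches, 1 library deviated most like its own number, and 0 of 9 pairs exceeded 0.1. No named gene result past the threshold changed direction under the alternatives run, while some under it changed sign; of their values in KO livers 3807 kept their side of the threshold, 133 lost it and 71 gained it. The 1 vehicle female limits every statement on females, and transcripts under 1 CPM rest on few counts.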

Other observations

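Pnliprp1, a pancreatic lipase relative, had 2 counts in the 4 vehicle libraries and 345 in the 6 PFOA libraries, a ratio of 105 with an exact 95% interval of 28.8 to 869. It was among the 12 highest log2 fold changes in KO livers, with 2.07, 3.35 and 4.54 CPM as lowest, median and highest PFOA values. The 12 pancreatic acinar markers summed to 16.9 to 24.5 CPM with vehicle and 7.90 to 11.3 CPM with PFOA. Of these markers 9 were under 1 CPM in every KO library, 5 of them without a count, so the sum rests on few genes. Gsta1, a glutathione transferase, went from 0.156, 0.333, 0 and 0 CPM to 1.51, 6.05 and 16.3 CPM (5.91 ± 0.98, adjusted p = 0.00543, and 0.0695 without all 3 doubtful libraries). Cyp4a12b rose by 3.99 ± 0.67 (adjusted p = 0.00796, and 0.00415 without all 3 doubtful libraries), to 8.54, 33.1 and 3.362 CPM in PFOA females and 235, 169 and 218 CPM in PFOA males. PFOA female replicate 2 held transcripts of the other sex (Ddx3y at 4.06 CPM), so the female values of this male-high gene are uncertain.

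Serpina9 fell from 0.365, 6.60, 14.0 and 5.30 CPM with vehicle to 0.0560, 0.503 and 1.68 CPM with PFOA (-2.57 ± 0.35, adjusted p = 5.47e-04). The vehicle female was as low as the PFOA libraries, and the male values did not overlap. Serpina9 was named from the lowest log2 fold changes without the vehicle female, so its fall in males was part of the choice. Irs1, an insulin receptor adaptor, rose from 3.55, 2.80, 2.10 and 3.98 to 5.71, 7.54 and 9.75 CPM (1.27 ± 0.22, adjusted p = 0.00265). Orm2, an acute phase carrier protein, rose from 20.9, 14.7, 12.7 and 11.2 to 47.5, 61.7 and 68.4 CPM (1.95 ± 0.16, adjusted p = 2.53e-05), one of 5 risen and 3 fallen genes among 31 acute phase genes (3 and 3 without the vehicle female).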
